A study of Mus musculus with 6 samples.

Results

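The data describe 9 genes of tuft cells in the small intestine of mice after ischemia/reperfusion (I/R) or sham surgery. Dclk1, Trpm5, Pou2f3, Alox5ap, Avil, Sh2d6, Il25, Gfi1b and Ltc4s were taken by name as markers and effectors of these cells. The deposited table gave values for 12382 genes, and 7 of the 9 had a row. Il25, which encodes the alarm cytokine of tuft cells, and Gfi1b, which encodes a transcription factor of the same cells, had none and are not analysed here. RNA sequencing covered 6 small intestine libraries of 8-week-old mice (C57BL/6), with no transgene or added agent named. The 3 I/R libraries (replicates 6, 7 and 9) came from mice whose superior mesenteric artery was blocked and then reopened, and the 3 sham libraries (replicates 1, 3 and 5) from mice operated without the block. Neither the segment of the intestine nor whether every library is its own animal is named in the labels, and the p-values cover only the scatter among these libraries, which may be technical. Values are FPKM, in which fragments are divided by the length of the transcript and by the size of the library. They keep no read counts, so the depth is unknown. Below, values in a row follow the order of the replicates.

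Tuft cells are rare chemosensory cells of the gut lining. They use a taste-like cascade that ends in the cation channel TRPM5, and they depend on the transcription factor POU2F3. When activated they release IL-25, which acts on innate lymphoid cells, and cysteinyl leukotrienes, which are made from arachidonic acid with the help of the proteins encoded by Alox5ap and Ltc4s. The lymphoid cells answer with IL-13, which turns more epithelial progenitors into tuft and goblet cells.

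All 7 listed genes were weakly expressed. Their means over the 6 libraries lay between 0.471 FPKM (Pou2f3) and 2.904 FPKM (Sh2d6), where the median gene of the table was at 6.03 FPKM. A transcript had a row only where its mean was at least 0.5 FPKM in sham or in I/R. Dclk1, Pou2f3 and Trpm5 reached this level in I/R only. These 3 genes had to be higher in I/R to be seen at all, so no count or median over the 7 is support for a change. Avil, Sh2d6, Alox5ap and Ltc4s reached it in both groups. In tissue RNA, a change in the number of tuft cells and a change in RNA per tuft cell cannot be told apart.

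The 2 groups were compared by limma over 12000 genes with a mean of 0.5 FPKM or more, on log2(FPKM + 1), a scale that understates the change of weakly expressed genes. Of the 7 genes, 6 were tested, all but Pou2f3, whose mean was too low. None passed a limma adjusted p of 0.05 (0 of 6), where 0.0167% of all tested genes passed as higher in I/R and again 0.0167% as lower. By a fold of 2 or more with an unadjusted p below 0.05, 0 of 6 were higher in I/R, against 1.93% of all genes. At an unadjusted p below 0.05 alone, 1 of the 6 was higher (Alox5ap), against 5.56% of all genes, and 0 were lower, against 3.38%. In 2 of the 6 (Dclk1 and Alox5ap) every I/R value lay above every sham value, as in 10.6% of all genes, and in 0 every I/R value lay below, as in 5.89%. All 6 log2 fold changes were above 0, as were 62.6% of all.

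**Figure D1:**
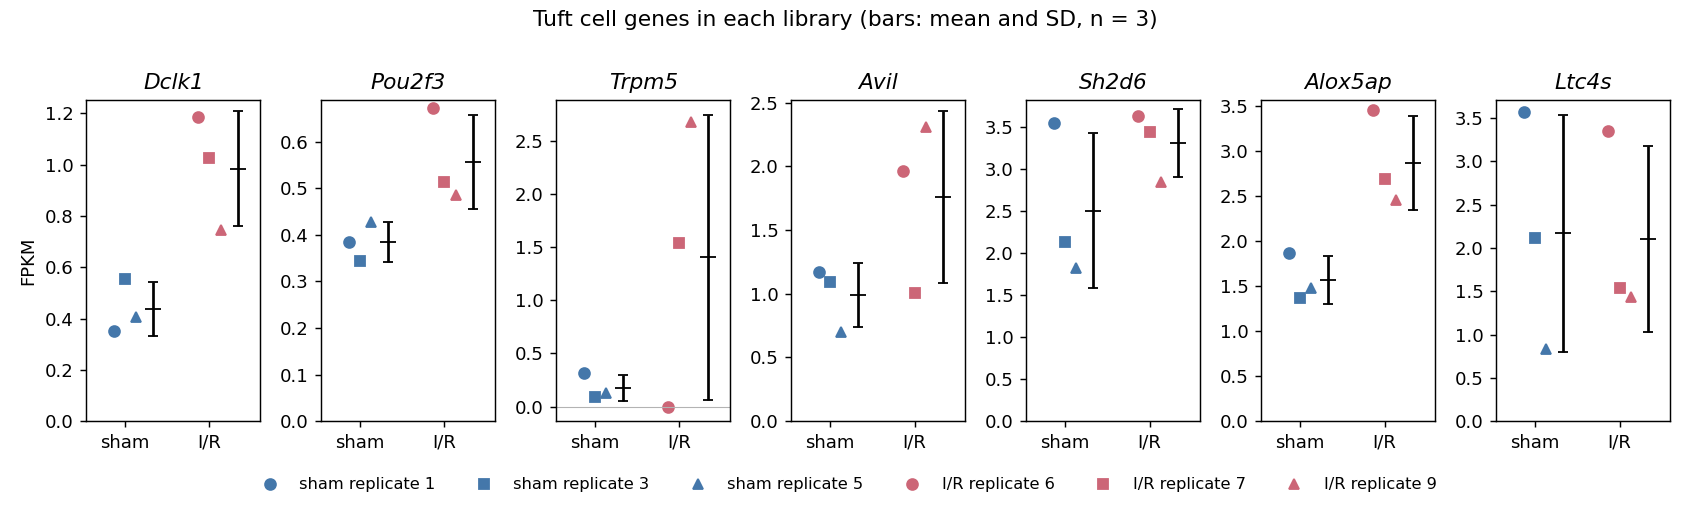
FPKM of the 7 listed tuft cell genes in each library, 1 panel a gene with its own linear axis, sham in blue and I/R in red, with the symbol naming the replicate. Black bars give the mean and SD of 3 libraries; the groups are apart in Dclk1, Pou2f3 and Alox5ap, and Trpm5 is at 0 in I/R replicate 6.

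Dclk1 encodes a microtubule-associated kinase and is a widely used marker of intestinal tuft cells, though neurons also express it. It read 0.351, 0.553 and 0.407 FPKM under sham surgery and 1.19, 1.02 and 0.745 FPKM after I/R. The groups did not overlap. Means were 0.437 ± 0.105 FPKM for sham and 0.985 ± 0.223 FPKM for I/R (SD, n = 3 each). The difference on the log2 scale was 0.46 ± 0.21 (SE, n = 3 against 3); limma gave an adjusted p of 0.587 and the exact permutation test a p of 0.1, the smallest that 3 against 3 libraries can give. Dclk1 lies on chromosome 3 (mm10, 55242364 to 55539068, plus strand). Of its 15 annotated transcripts 1 had a row, a coding transcript of 7962 bases and 17 exons that begins at the upstream start of the gene. None of those that begin near the internal start had a row. The 250 bases before both starts are shown for that reason, from the RefSeq promoter set (GRCm38.p6, plus strand), with CG pairs in capitals.
Dclk1 upstream start, chr3:55242114-55242363: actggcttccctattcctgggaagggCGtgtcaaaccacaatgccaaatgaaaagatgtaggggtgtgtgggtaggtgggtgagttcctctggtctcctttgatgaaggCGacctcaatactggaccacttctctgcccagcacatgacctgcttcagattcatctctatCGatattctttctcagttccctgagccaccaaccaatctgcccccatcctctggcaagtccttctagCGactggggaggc
Dclk1 internal start, chr3:55461478-55461727: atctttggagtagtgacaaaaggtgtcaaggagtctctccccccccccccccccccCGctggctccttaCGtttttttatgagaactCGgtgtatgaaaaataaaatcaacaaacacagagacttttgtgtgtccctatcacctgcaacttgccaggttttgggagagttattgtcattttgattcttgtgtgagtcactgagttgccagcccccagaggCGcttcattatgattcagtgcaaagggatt
Both stretches hold 4 CG pairs, against a median of 6 over all promoters of the set, and their GC contents are 52.4% and 46.8%, against a median of 52.4%.

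Pou2f3 encodes the transcription factor on which tuft cells depend. It read 0.385, 0.343 and 0.428 FPKM under sham surgery and 0.673, 0.514 and 0.485 FPKM after I/R. Every I/R value was above every sham value, within a narrow range. In a fit without the minimum level its difference on the log2 scale was 0.17 ± 0.19 (SE, n = 3 against 3); limma gave an adjusted p of 0.76 and the exact permutation test a p of 0.1. The gene lies on chromosome 9 (mm10, 43123939 to 43210369, minus strand), and its listed transcript has 13 exons. POU factors bind the octamer ATGCAAAT. Promoter windows of 300 bases were found for 6 of the 9 genes (7 windows, since Dclk1 has both starts). The octamer, sought on both strands, was in 0 of the 7 windows and in 1.74% of the 32851 windows of the whole set. At that share, 0 of 7 was the likely outcome for any genes, so nothing is concluded from it. Pou2f3, Alox5ap and Il25 were not matched.

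Trpm5 encodes the cation channel that opens at the end of the taste-like cascade. It read 0.317, 0.0883 and 0.129 FPKM under sham surgery and 0, 1.54 and 2.67 FPKM after I/R. The 0 of I/R replicate 6 is as listed and can be a failed estimate, and because of it the groups overlapped. The difference on the log2 scale was 0.84 ± 0.48 (SE, n = 3 against 3); limma gave an adjusted p of 0.624 and the exact permutation test a p of 0.4. Without I/R replicate 6 it was 1.38, with an unadjusted limma p of 0.00402 and an adjusted p of 0.517. Trpm5 reached the listing level in I/R only, which fixed the direction of its mean, so these p-values are no support for a change. Without I/R replicate 9 the gene was under the minimum mean and was not tested.

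The Trpm5 row is not the full-length transcript. Of 8 annotated transcripts, the listed one has 726 bases and 5 exons at the 3′ side of the gene on chromosome 7 (mm10, 143069153 to 143074561, minus strand). The full-length transcript of 4123 bases and 25 exons had no row. The 4 upstream exons of the listed transcript (413 bases) are shared with the full-length one. Its last exon of 313 bases is not, and lies 2324 bases beyond the end of the full-length transcript. Of those 313 bases, 217 fall in exons of Tssc4, a gene on the opposite strand. The libraries were made with strand marking, but whether strand was used in quantification is not given in the sources used here. Junctions that tell the transcripts apart are shown from the GENCODE M21 transcripts, 30 bases on each side, with the first bases of the following exon in capitals.
Listed Trpm5 transcript, chr7:143072731-143072760 joined to chr7:143069436-143069465: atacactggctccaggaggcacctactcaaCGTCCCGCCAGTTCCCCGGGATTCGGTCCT
Full-length Trpm5 transcript, chr7:143072731-143072760 joined to chr7:143072407-143072436: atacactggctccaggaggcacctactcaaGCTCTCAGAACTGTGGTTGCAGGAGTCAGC
The lower case parts are identical and the capitals differ. All 30 capital bases of the listed transcript lie within Tssc4 exons. Tssc4 read 2.99, 6.73 and 7.45 FPKM under sham surgery and 9.13, 6.24 and 8.01 FPKM after I/R. It was highest in I/R replicate 6, where Trpm5 was listed at 0. Its part in the Trpm5 values was not tested.

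**Figure D2:**
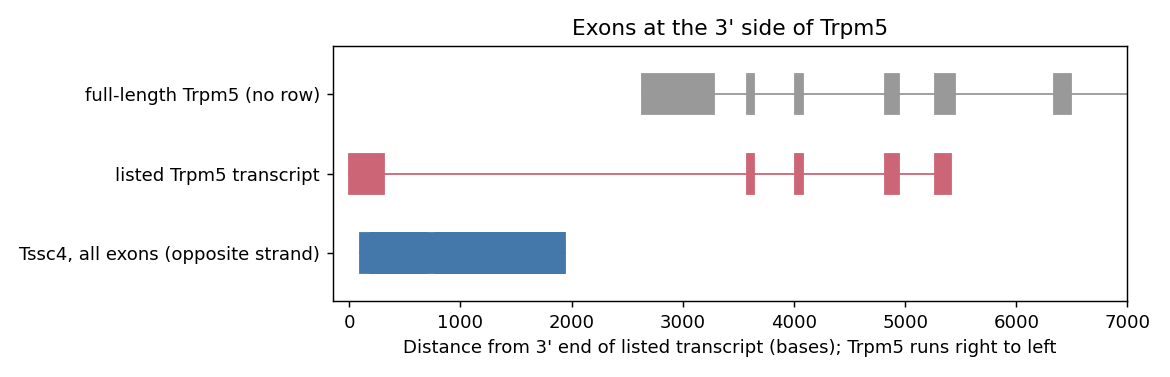
Exons (boxes) at the 3′ side of Trpm5, by distance in bases from the 3′ end of the listed transcript, with the exons of all annotated Tssc4 transcripts. The last exon of the listed transcript, at the left, lies outside the full-length transcript and shares 217 of its 313 bases with Tssc4.

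Avil encodes advillin, an actin-binding protein of the villin family that marks tuft cells and is also made by sensory neurons. It read 1.17, 1.09 and 0.701 FPKM under sham surgery and 1.97, 1.01 and 2.31 FPKM after I/R. Of the I/R libraries, replicate 7 was between the lowest and highest sham value and the other 2 I/R libraries above it. The difference on the log2 scale was 0.45 ± 0.27 (SE, n = 3 against 3); limma gave an adjusted p of 0.632 and the exact permutation test a p of 0.3. The listed transcript (chromosome 10, mm10, 127000709 to 127020994, plus strand) shares 165 of 3033 exonic bases with Tsfm on the opposite strand. Tsfm read 13.5, 11.2 and 16.98 FPKM under sham surgery and 14.6, 16.3 and 17.3 FPKM after I/R, and its part in the Avil values was not tested.

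Sh2d6 encodes an SH2 domain adaptor. It was the most abundant of the 7 genes on the FPKM scale and read 3.55, 2.14 and 1.82 FPKM under sham surgery and 3.63, 3.44 and 2.85 FPKM after I/R. Sham replicate 1 lay among the I/R libraries, and sham replicates 3 and 5 lay below all of them. The difference on the log2 scale was 0.32 ± 0.26 (SE, n = 3 against 3); limma gave an adjusted p of 0.688 and the exact permutation test a p of 0.3. It was 0.53 without sham replicate 1 and 0.18 without sham replicate 5. The gene lies on chromosome 6 (mm10, 72513641 to 72521707, minus strand), and 1 of its 10 annotated transcripts had a row.

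The remaining pair of genes serves leukotriene synthesis. Alox5ap encodes FLAP, the membrane protein that hands arachidonic acid to 5-lipoxygenase, and is made by myeloid leukocytes as well as tuft cells. It read 1.87, 1.37 and 1.48 FPKM under sham surgery and 3.46, 2.69 and 2.45 FPKM after I/R. The groups did not overlap, and means were 1.57 ± 0.266 FPKM for sham and 2.87 ± 0.524 FPKM for I/R (SD, n = 3 each). The unadjusted limma p was 0.0346. The difference on the log2 scale was 0.59 ± 0.22 (SE, n = 3 against 3); limma gave an adjusted p of 0.541 and the exact permutation test a p of 0.1. After scaling to epithelial markers the groups overlapped, with a log2 fold change of 0.47 ± 0.34 (limma adjusted p = 0.964). The gene lies on chromosome 5 (mm10, 149264767 to 149288153, plus strand), and its listed transcript shares 189 of 1251 bases with an antisense gene, Gm19719, that had no row.

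Ltc4s encodes leukotriene C4 synthase, which joins glutathione to leukotriene A4. It read 3.57, 2.11 and 0.831 FPKM under sham surgery and 3.35, 1.54 and 1.44 FPKM after I/R. The I/R values lay inside the sham range. The difference on the log2 scale was 0.02 ± 0.41 (SE, n = 3 against 3); limma gave an adjusted p of 0.994 and the exact permutation test a p of 1. Its sign turned to -0.08 under median-ratio scaling. Ltc4s lies on chromosome 11 (mm10, 50236461 to 50238616, minus strand). The listed transcript shares 192 of its 649 bases with an antisense gene, Gm26542, that had no row.

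In order of mean sham level on the FPKM scale, Sh2d6 (2.502) was followed by Ltc4s (2.17), Alox5ap (1.57), Avil (0.988), Dclk1 (0.437), Pou2f3 (0.386) and Trpm5 (0.178). Among neighbours in that order, the sham ranges of Sh2d6 and Ltc4s, of Ltc4s and Alox5ap, and of Dclk1 and Pou2f3 overlapped. Summed over the 7 genes, sham replicates reached 11.2, 7.69 and 5.79 FPKM and I/R replicates 14.3, 11.8 and 12.9 FPKM. I/R replicate 6 held the highest value of 4 genes, I/R replicate 9 of 2 (Trpm5 and Avil) and sham replicate 1 of 1 (Ltc4s). Sham replicate 5 held the lowest value of 3 genes.

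FPKM as a whole ran higher in I/R. The median log2 fold change over the 12000 genes was 0.12, and it was 0.0088 after median-ratio scaling, -0.0025 after quantile normalization and -0.02 after scaling to epithelial markers. The median over the 6 tested tuft cell genes was 0.46, and over the 4 that reached the listing level in both groups it was 0.39. The first value holds genes that had to be higher in I/R to be listed, and neither is read as support. The log2 fold changes of Dclk1, Trpm5, Avil, Sh2d6 and Alox5ap stayed above 0 under median-ratio, quantile and epithelial scaling, and that of Ltc4s was below 0 under each of these 3. After quantile normalization Dclk1 was at 0.26 ± 0.21, with overlapping groups, and Alox5ap at 0.39 ± 0.17 (SE).

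**Figure D3:**
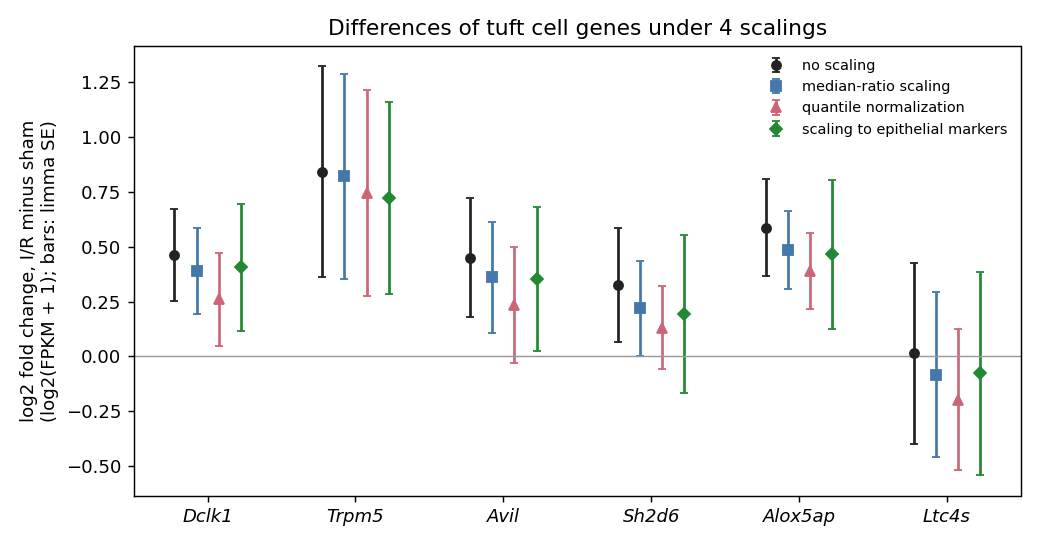
Log2 fold change (I/R minus sham on log2(FPKM + 1)) of the 6 tested tuft cell genes under 4 scalings, with bars of 1 limma SE. Ltc4s changes sign between the unscaled values and the other 3, and the other 5 genes stay above 0.

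Other genes of tuft cell identity and structure were taken from a list of 25, of which 22 had a row and were tested. Of the 22, 17 had a positive log2 fold change, against 62.6% of all genes, and 5 a negative one. Their median was 0.38, against 0.12 over all genes. Of the 22, 0 passed the limma adjusted threshold. At an unadjusted p below 0.05, 0 were higher in I/R (5.56% of all genes) and 1 was lower (3.38%). The largest log2 fold changes were those of Inpp5d (1.54), Spib (1.51) and Lrmp (1.48). In each of them sham replicate 1 was the highest sham library, and the part of lymphocytes in these values was not tested. Atoh1 reached the listing level in I/R only and was listed at 0 in every library but I/R replicate 9 (5.72 FPKM). Espn, which encodes an actin bundler of microvilli, read 112.5, 133.1 and 121.8 FPKM under sham surgery and 62.8, 89.8 and 49.8 FPKM after I/R. All 3 I/R values were below the sham range (log2 fold change -0.89 ± 0.24, SE; limma adjusted p = 0.475). Sox9, a transcription factor gene of crypt progenitors and tuft cells, read 3.66, 2.34 and 5.46 FPKM under sham surgery and 9.95, 6.89 and 4.996 FPKM after I/R, with overlap. Pik3r5, which encodes a regulatory subunit of PI3-kinase gamma, read 2.88, 0.942 and 0.992 FPKM under sham surgery and 5.005, 2.35 and 3.51 FPKM after I/R, also with overlap.

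Several genes of tuft cells are shared with lymphocytes. Lrmp, which encodes a lymphoid membrane protein that tuft cells also make, read 12.2, 0.473 and 2.49 FPKM under sham surgery and 12.2, 10.2 and 8.98 FPKM after I/R. Spib, a transcription factor gene of tuft and B cells, read 15.9, 1.39 and 0.952 FPKM under sham surgery and 16.2, 9.71 and 8.91 FPKM after I/R. Sham replicate 1 sat with the I/R libraries in both genes. Cd79a, which encodes part of the B cell receptor, read 96.2, 1.93 and 1.47 FPKM under sham surgery and 77.1, 72.6 and 32.7 FPKM after I/R. Of the same marker list, Gzma and Gzmb, the granzyme genes of cytotoxic lymphocytes, were below the sham range in all 3 I/R libraries, as were 5.89% of all genes. Gzma read 121.3, 96.0 and 99.5 FPKM under sham surgery and 64.1, 51.5 and 77.4 FPKM after I/R (limma adjusted p = 0.483), and Gzmb 20.5, 15.8 and 13.1 FPKM and 5.72, 8.94 and 10.4 FPKM (limma adjusted p = 0.483). Dclk1 did not follow the order of Cd79a and was lowest of all in sham replicate 1. Alox5ap, Avil, Sh2d6, Ltc4s and Trpm5 were highest among the sham libraries in sham replicate 1.

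The taste-like cascade was thinly covered. Of 14 genes, 6 had a row, and Gnat3 and Gng13, which encode G protein subunits, and the succinate receptor gene Sucnr1 did not. All 6 had a negative log2 fold change (median -0.21), where 62.6% of all genes were above 0. It was close to 0 for Plcb2 (-0.060) and Itpr3 (-0.079). Itpr3 was the 1 gene of the 6 that was lower without overlap (5.89% of all genes). Gnb1 read 107.2 to 155.4 FPKM over the libraries, far above any of the 7 tuft cell genes. The part of tuft cells in these values was not tested. The log2 fold change of Trpm5 was positive, but Trpm5 reached the listing level in I/R only, which fixed the direction of its mean. Of the 6, 0 passed the limma adjusted threshold. At an unadjusted p below 0.05, 0 of them were higher in I/R (5.56% of all genes) and 0 were lower (3.38%). Trpm4, the close relative of Trpm5, read 36.98, 50.5 and 34.1 FPKM under sham surgery and 34.9, 24.4 and 19.9 FPKM after I/R (log2 fold change -0.62 ± 0.26, SE; limma adjusted p = 0.562). Plcb2, which encodes the phospholipase of the cascade, read 2.21, 0.519 and 0.565 FPKM under sham surgery and 1.24, 0.829 and 0.641 FPKM after I/R. Its highest value was again in sham replicate 1.

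Of 21 genes of leukotriene and prostaglandin metabolism, 15 were tested, 10 with a positive and 5 with a negative log2 fold change; 0 of 15 passed the limma adjusted threshold, and at an unadjusted p below 0.05 0 were higher in I/R (5.56% of all genes) and 1 was lower (3.38%). Alox5, which encodes the 5-lipoxygenase that FLAP serves, read 0.488, 0.425 and 0.475 FPKM under sham surgery and 0.512, 0.482 and 0.779 FPKM after I/R, with overlap. Alox5 and Ptgs2 reached the listing level in I/R only, so both had to have a higher mean there. Ggt1 and Dpep1 encode the peptidases that trim leukotriene C4 to D4 and E4, and both were below the sham range in every I/R library. Of the 15 genes, these 2 were lower without overlap (5.89% of all genes). In the other direction, 3 were higher without overlap (Mgst1, Ptgs2 and Ptges3), against 10.6% of all genes. Of 10 enterocyte markers, 1 was lower without overlap (Anpep). The part of enterocytes in the Ggt1 and Dpep1 values was not tested. Dpep1 read 312.2, 316.9 and 280.04 FPKM under sham surgery and 204.2, 199.4 and 145.1 FPKM after I/R (log2 fold change -0.74 ± 0.20, SE; limma adjusted p = 0.472). Ggt1 read 241.8, 322.02 and 255.2 FPKM under sham surgery and 164.6, 226.8 and 208.9 FPKM after I/R (log2 fold change -0.45 ± 0.21, SE; limma adjusted p = 0.589). Ptgs1, the cyclooxygenase gene of tuft cells, read 7.54, 4.08 and 3.27 FPKM under sham surgery and 9.88, 6.003 and 4.93 FPKM after I/R. Ptgs2, the inducible cyclooxygenase gene, read 0.508, 0.493 and 0.0521 FPKM under sham surgery and 0.921, 2.31 and 0.738 FPKM after I/R, without overlap (limma adjusted p = 0.566).

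The type 2 circuit on which tuft cells act had 14 of 23 genes with a row, and Il4, Il5 and Il13 were not among them. Of 13 tested, 7 had a positive and 6 a negative log2 fold change; 0 of 13 passed the limma adjusted threshold, and at an unadjusted p below 0.05 1 was higher in I/R (5.56% of all genes) and 1 was lower (3.38%). Il17rb, which encodes the IL-25 receptor subunit that tuft cells themselves carry, read 1.46, 0.9203 and 0.223 FPKM under sham surgery and 0.212, 0.0969 and 0.122 FPKM after I/R. All 3 I/R values were below the sham range, narrowly so for I/R replicate 6 (log2 fold change -0.65 ± 0.30, SE; limma adjusted p = 0.588). Il17rb reached the listing level in sham only and Dclk1 in I/R only, so the opposite directions of their means were set by the listing. Il4ra, the gene of the receptor chain for IL-4 and IL-13, read 11.3, 16.3 and 8.53 FPKM under sham surgery and 19.3, 16.8 and 17.9 FPKM after I/R, without overlap (limma adjusted p = 0.562). Its signal transducer gene Stat6 read 18.1, 25.6 and 20.4 FPKM under sham surgery and 16.7, 12.02 and 15.2 FPKM after I/R, also without overlap and in the other direction (limma adjusted p = 0.553). Areg, a growth factor gene of innate lymphoid cells and damaged epithelium, read 4.49, 19.9 and 13.8 FPKM under sham surgery and 24.1, 24.5 and 29.3 FPKM after I/R, without overlap (limma adjusted p = 0.553). Of the 13 tested genes, 2 were higher without overlap (10.6% of all genes) and 2 were lower (5.89%).

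Markers of other cells were read beside these values. All 10 pan-epithelial markers, which also set the epithelial scaling, had a row. They summed to 4743 to 5827 FPKM in sham and 5043 to 6618 FPKM in I/R. The scaling used their geometric mean, in which a weakly expressed gene counts as much as an abundant one. Cdx2 read 85.8, 108.8 and 7.42 FPKM under sham surgery and 6.87, 55.1 and 68.5 FPKM after I/R, which the sums do not show. The scaling factors were lowest in sham replicate 5 (0.843) and I/R replicate 6 (0.888). None of the 10 markers passed the limma adjusted threshold. At an unadjusted p below 0.05, 1 was higher in I/R (5.56% of all genes) and 0 were lower (3.38%). The 1 was Krt18, at 121.5, 86.2 and 164.7 FPKM under sham surgery and 201.5, 186.2 and 481.2 FPKM after I/R, without overlap. All 8 goblet markers, of the lineage that IL-13 also expands, had a negative log2 fold change (median -0.76) and summed to 2499.8 to 4764 FPKM in sham and 1795 to 3249 FPKM in I/R; 0 of 8 passed the limma adjusted threshold, and at an unadjusted p below 0.05 0 were higher in I/R (5.56% of all genes) and 2 were lower (3.38%). Of 12 tested macrophage and neutrophil markers, 11 had a positive log2 fold change, with sums of 40.7 to 131.2 FPKM in sham and 63.2 to 195.2 FPKM in I/R, while Mpo, Elane and Cxcr2 had no row. At an unadjusted p below 0.05, 2 of the 12 were higher (S100a8 and S100a9, calprotectin genes of neutrophils), both without overlap, against 5.56% of all genes, 0 were lower, against 3.38%, and 0 passed the limma adjusted threshold (smallest adjusted p = 0.247, S100a8). S100a8 was listed at 0 in every sham library and read 4.43, 1.46 and 2.39 FPKM after I/R. S100a8 and Csf3r reached the listing level in I/R only, which fixed their sign. I/R replicate 6 was highest both in the summed macrophage and neutrophil markers and in Alox5ap. Sham replicate 1 was above I/R replicates 7 and 9 in that sum (131.2 against 97.0 and 63.2 FPKM). In Alox5ap it was below both (1.87 against 2.69 and 2.45 FPKM). Of the B and T cell markers, 7 of 12 had a positive log2 fold change, with sums of 139.2 to 392.6 FPKM in sham and 188.6 to 283.9 FPKM in I/R. None of those 12 was higher at an unadjusted p below 0.05 (5.56% of all genes), 2 were lower (Gzma and Gzmb; 3.38% of all genes), and 0 passed the limma adjusted threshold. Of 11 mast cell markers 4 had a row, with sums of 2.09 to 4.43 FPKM in sham and 1.88 to 6.76 FPKM in I/R, and Cpa3, Tpsb2 and Fcer1a had none. Of 8 eosinophil markers 1 had a row (Prg2), at 0.397 to 3.897 FPKM in sham and 2.28 to 6.01 FPKM in I/R. All 7 tested neuron and glia markers had a positive log2 fold change, with sums over 8 genes of 4.997 to 17.1 FPKM in sham and 6.02 to 23.5 FPKM in I/R. Gfap, a glial gene of that list, reached the listing level in I/R only. The part of these cells in the values of Alox5ap, Ltc4s, Dclk1 and Avil was not tested.

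Enterocyte markers summed to 9788 to 19387 FPKM in sham and 7970.1 to 15389 FPKM in I/R. Enteroendocrine markers summed to 68.9 to 151.5 FPKM in sham and 70.03 to 168.4 FPKM in I/R. Paneth cell markers summed to 3480.1 to 4351 FPKM in sham and 630.9 to 4139 FPKM in I/R. Of these, Reg3g read 4275, 3390 and 1408 FPKM under sham surgery and 1964, 4010 and 523.3 FPKM after I/R. Lyz1 read 11.7, 6.41 and 513.2 FPKM under sham surgery and 40.6, 9.29 and 18.6 FPKM after I/R. Ang4 read 4.89, 3.14 and 571.5 FPKM under sham surgery and 29.6, 2.86 and 5.77 FPKM after I/R. Sham replicate 5 was thus highest in Lyz1 and Ang4, which the sums do not show. Segment markers set I/R replicate 9 apart. Its 7 listed proximal markers summed to 3412 FPKM, where the other 5 libraries were at 100.9 to 646.99 FPKM, and its 8 distal markers to 415.4 FPKM, where the others were at 1657 to 6693 FPKM. I/R replicate 9 was highest of all in Trpm5 and Avil, and lowest of the I/R libraries in Dclk1, Pou2f3, Sh2d6, Alox5ap and Ltc4s. Without it, the log2 fold changes were 0.55 for Dclk1, 0.66 for Alox5ap and 0.30 for Avil. The part of the segment in these values was not tested.

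**Figure D4:**
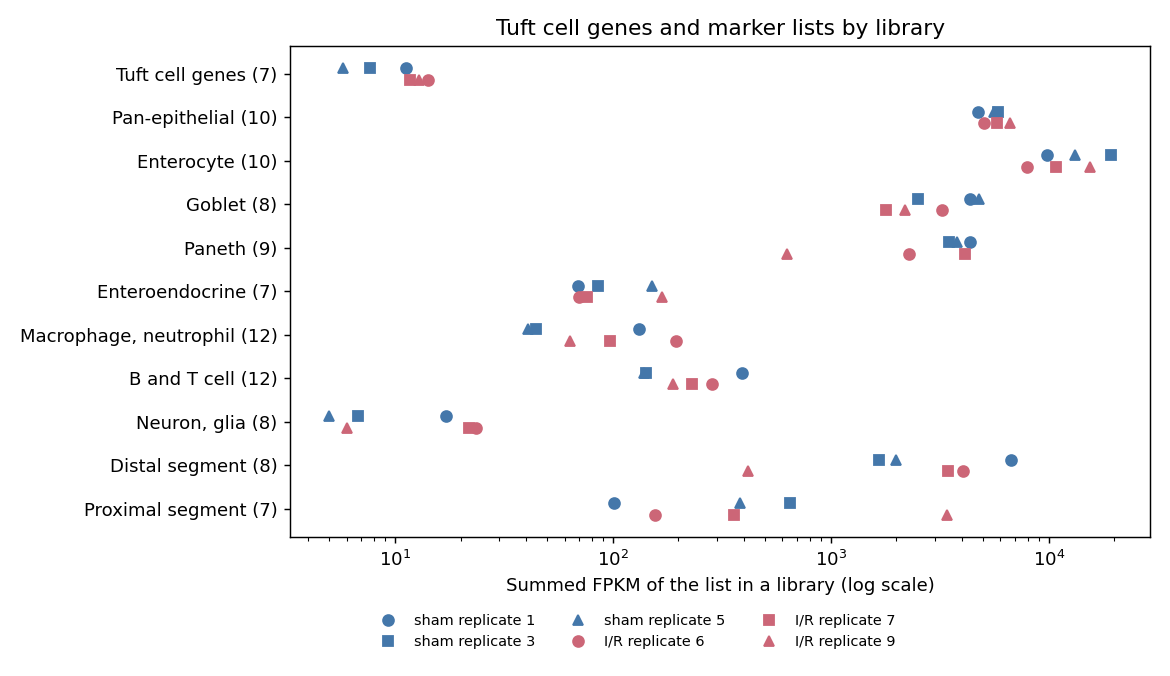
Summed FPKM of the 7 listed tuft cell genes and of 10 marker lists in each library (log axis), sham in blue and I/R in red, with the number of genes with a row in brackets. Tuft cell genes run from 5.79 to 14.3 FPKM, and I/R replicate 9 stands apart in the segment lists.

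The genes whose pattern was most like that of the tuft cell genes were sought by Pearson correlation, over the 6 libraries, with the mean log2(FPKM + 1) of the 6 tested genes. The 5 highest were Trnau1ap (r = 0.989), Uchl3 (0.987), Trmt10a (0.986), Nepro (0.986) and Tsc22d2 (0.982). In all, 49 genes had an r of 0.95 or more. Uchl3, which encodes a ubiquitin hydrolase, read 22.7, 15.7 and 14.2 FPKM under sham surgery and 25.95, 25.5 and 27.5 FPKM after I/R. The tuft cell genes themselves, which make up the mean, had r from 0.43 (Ltc4s) to 0.87 (Alox5ap). With 6 libraries and 12000 genes such values are a description, and the points share the libraries and their scaling.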

How the data were processed

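Transcript FPKM for 6 libraries were computed and deposited by the authors; their processing notes list mm10 as the build and, as tools, StringTie, cutadapt and HISAT2 (2.0.4), and the annotation is not given in the sources used here. Every row averaged 0.5 FPKM or more in sham or in I/R. Of 19763 transcripts, 19702 matched GENCODE M21 by identifier without version, and FPKM were summed per gene. The values carry no read counts, so the precision of each value is unknown.

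Groups were compared with limma 3.58.1 (R 4.3.3; eBayes with a mean-variance trend, 2-sided) on log2(FPKM + 1) for 12000 genes whose mean was 0.5 FPKM or more, with Benjamini-Hochberg adjustment over all of them and no scaling between samples. Single genes also had an exact permutation test (scipy 1.17.1). The procedure was tested on simulated data in which only genes more abundant than any tuft cell gene were changed. That test therefore does not cover the level of the tuft cell genes. The members and the 16 marker lists were chosen with earlier results of these data known. The text names all members and the 5 genes nearest in pattern. From the lists it describes in detail, it names up to 4 genes with the smallest p. Alox5, Spib, Plcb2, Ptgs1, Inpp5d, Itpr3, Mgst1, Ptges3, Cdx2, Tssc4 and Tsfm were chosen after their values were seen. Alternatives were pseudocounts of 0.1 and 0.5, other minimum levels, 3 scalings, other variance settings, the most abundant transcript, and each library left out. Promoters came from RefSeq (GRCm38.p6) and transcript sequences from GENCODE M21.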

Additional observations from a re-analysis of the deposited data

How the results depend on the processing

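Under every alternative that could be run, 0 of the tuft cell genes passed the adjusted threshold, and the lowest limma adjusted p of any of them was 0.342 (Alox5ap). At a minimum mean of 5 FPKM no tuft cell gene was left to test. Each listed gene had 1 listed transcript, so taking the most abundant one left its log2 fold change as it was. The log2 fold changes over the alternatives ran from 0.39 to 0.83 for Alox5ap, 0.26 to 1.01 for Dclk1, 0.71 to 1.55 for Trpm5, 0.24 to 0.73 for Avil and 0.13 to 0.53 for Sh2d6. That of Ltc4s, 0.02 in the main comparison, turned to -0.083 after median-ratio scaling, -0.20 after quantile normalization, -0.078 after scaling to epithelial markers, and, with a library left out, ran from -0.33 (sham replicate 5) to 0.33 (sham replicate 1), with -0.25 when I/R replicate 6 was dropped; the cause was not tested.

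The median log2 fold change of the tested genes was 0.78 with a pseudocount of 0.1, which by construction widens differences of low values, and 0.25 after quantile normalization. With a library left out it ran from 0.39 to 0.53. Over the genes listed through both groups, a choice made after seeing the data, it was 0.39. The number of genes with an unadjusted p below 0.05 was 1 in the main comparison, 0 after quantile normalization, 0 after scaling to epithelial markers and 2 without a mean-variance trend, and 0 to 1 with a library left out (0 when sham replicate 3, sham replicate 5 or I/R replicate 7 was dropped; when I/R replicate 6 was dropped, the 1 was Trpm5 and no longer Alox5ap). The number past both a fold of 2 and an unadjusted p of 0.05 was 0 to 1 with a library left out. The 1 was Trpm5, when I/R replicate 6 was dropped. Trpm5 was listed through I/R only, so this is not read as support. For these 2 rules the share of all genes is known for the main comparison only (5.56% and 1.93%, higher in I/R). Counts under the alternatives therefore have no share beside them. Genes higher without overlap numbered 2 in the main comparison (10.6% of all genes), 1 after quantile normalization (7.72%), 1 after scaling to epithelial markers (2.75%), and 2 to 3 with a library left out, where the share of all genes was 12.9% to 26.4%, highest without sham replicate 1. No paired analysis was possible because the groups share no replicate numbers.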
